A study of Mus musculus with 3 samples.

Results

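Forkhead factors are transcription factors that bind DNA through a winged helix fold, and several of them mark or pattern mesenchyme in the embryo. The 10 genes followed here were Foxd1, Foxd2, Foxc1, Foxc2, Foxf1, Foxf2, Foxl1, Foxs1, Foxp1 and Foxp2. They were chosen by name: every probe set (a group of short probes on the array that reports 1 transcript) whose platform annotation gave 1 symbol among the 10 was taken, which gave 26 of 45037 probe sets that were not array controls. All 10 genes were among the 18193 genes measured on the array.

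The cells came from fetal kidneys of mice that carried the transgene Tg(Meis1-EGFP)FO156Gsat on a CD-1 background, at E15.5 (Theiler stage 23). In these mice, green fluorescent protein is made under Meis1 control elements, and the cells positive for it were sorted after trypsin digestion. The series has 1 group of 3 arrays, replicates 1, 2 and 3, each from a pool of about 20 kidneys and after 2 rounds of RNA amplification. No cells without the reporter were measured. The labels call the cells nephrogenic interstitium in one field and peripheral blastema in another.

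In the kidney, the stroma lies around the nephron progenitors and the branching ureteric tips and later gives rise to interstitial fibroblasts, pericytes and mesangial cells. Foxd1 is the classical marker of its cortical progenitors, and mice without it form small kidneys with a disturbed capsule. Foxc1 and Foxc2 act in the early kidney mesenchyme, Foxf1, Foxf2 and Foxl1 are known from mesenchyme next to gut and lung epithelium, and Foxs1 from neural crest derivatives and vessel walls. Foxp1 and Foxp2 belong to a branch of the family that represses transcription.

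The RefSeq table of promoters (GRCm38.p6, 300 bases around an annotated start) held 7 promoters for 5 of the 10 genes. Those of Foxd1, the marker gene of the stroma, and of Foxc1 and Foxf2 are shown. Foxc1 and Foxf2 were taken because they lie in 1 gene cluster and were called differently on the arrays. Capitals mark each CG dinucleotide (CpG), the site at which vertebrate DNA is methylated. The Foxd1 promoter lies at chr13:98353995-98354294, that of Foxc1 at chr13:31806396-31806695 and that of Foxf2 at chr13:31625566-31625865, all on the plus strand.
Foxd1: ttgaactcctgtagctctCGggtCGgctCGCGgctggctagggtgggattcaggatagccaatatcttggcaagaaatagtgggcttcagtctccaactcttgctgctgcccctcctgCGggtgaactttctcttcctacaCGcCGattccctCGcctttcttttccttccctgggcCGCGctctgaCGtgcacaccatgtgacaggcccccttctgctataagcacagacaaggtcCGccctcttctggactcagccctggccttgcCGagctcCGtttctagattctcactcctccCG
Foxc1: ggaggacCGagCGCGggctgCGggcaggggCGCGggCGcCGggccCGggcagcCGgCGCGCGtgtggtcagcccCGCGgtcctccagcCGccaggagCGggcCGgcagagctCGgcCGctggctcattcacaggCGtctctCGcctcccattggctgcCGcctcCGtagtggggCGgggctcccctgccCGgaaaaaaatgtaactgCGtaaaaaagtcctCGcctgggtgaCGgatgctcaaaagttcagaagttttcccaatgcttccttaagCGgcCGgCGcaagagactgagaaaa
Foxf2: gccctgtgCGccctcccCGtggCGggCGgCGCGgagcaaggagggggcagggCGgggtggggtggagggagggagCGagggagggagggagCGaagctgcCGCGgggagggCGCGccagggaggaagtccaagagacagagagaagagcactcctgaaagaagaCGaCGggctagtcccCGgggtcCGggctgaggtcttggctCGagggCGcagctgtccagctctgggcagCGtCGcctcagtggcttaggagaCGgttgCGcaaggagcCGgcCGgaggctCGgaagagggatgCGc

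The Foxc1 promoter held 32 CpG in 300 bases, that of Foxf2 27 and that of Foxd1 15, against a median of 7 over all 32851 promoters in the table. The Foxd2 promoter held 26, and the 3 promoters of Foxp1 held 13, 5 and 44. The CpG count of Foxf2, which was not above background, was at or above that of 85.8% of all promoters, compared with 67.0% for Foxd1, which was well above it. None of the 7 promoters held the forkhead core TGTTTAC, the Gli core GACCACCCA or a TATAAA box on either strand. Over all promoters of the same length, 3.65% held the first, 0.253% the second and 13.6% the third.

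Signals were compared with the background level of the same array, which was the 95th percentile of 70 chemosensory receptor genes, genes made in sensory neurons. A probe set was called above background when its log2 signal minus that level exceeded 0 by limma's one-sided test at an adjusted p under 0.05. The background levels were signals of 138, 187 and 170 in replicates 1, 2 and 3. Of all probe sets 41.9% were above background, and of all genes, each taken at its brightest probe set, 57.2%. Of the 26 forkhead probe sets 13 were above background, and each of these 13 lay above the level on all 3 arrays. Of the 10 genes, 7 were above background (Foxd1, Foxd2, Foxc1, Foxc2, Foxf1, Foxp1 and Foxp2) and 3 were not (Foxf2, Foxl1 and Foxs1). The median distance of the 10 genes from background was 3.34 log2 units, against 1.50 over all genes.

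**Figure D1:**
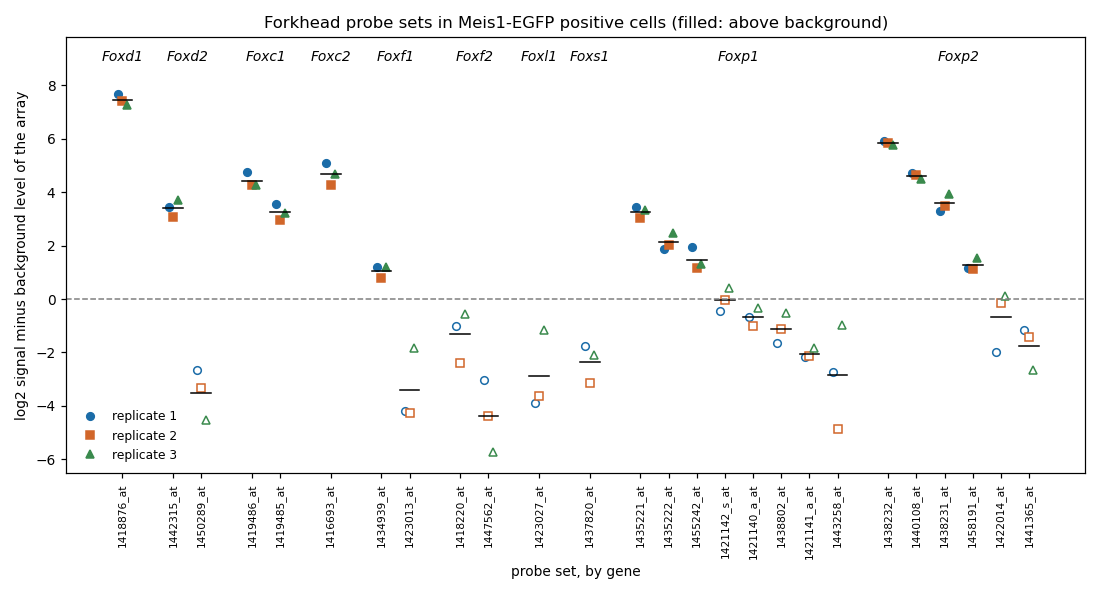
Log2 signal minus the background level of the same array for the 26 forkhead probe sets, grouped by gene, with 1 point per array and a line at the mean. Filled points mark the 13 probe sets above background; Foxd1 lay 7.45 log2 units above it, while no probe set of Foxf2, Foxl1 or Foxs1 reached the dashed line on any array.

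Markers of kidney stroma were detected, on a list chosen with earlier results of these data known. All 11 stromal markers other than Foxd1 were above background, and so were all 10 that remained without Meis1, whose control elements drive the reporter. Of 7 cap mesenchyme markers (the nephron progenitors) 5 were above, with Itga8 at 5.45 ± 0.24 log2 units (SE, n = 3), Eya1 at 3.45 ± 0.27 (-0.30 averaged over its probe sets), Meox1 at 2.57 ± 0.21 and Six2 at 1.84 ± 0.20. Cited1 (-4.22 ± 0.19) and Osr1 (-3.15 ± 0.37) were not above background. Podocyte markers were above in 2 of 4 measured cases, endothelial markers in 5 of 8, leukocyte markers in 1 of 6 and erythroid markers in 1 of 5. Of all genes, 57.2% were above. Ureteric bud markers were above in 4 of 8 cases, with the adhesion protein Epcam at 4.11 ± 0.24, Krt18 at 2.17 ± 0.21 and Wnt11 at 2.04 ± 0.23. Calb1 lay at 1.62 ± 0.28 (-1.44 averaged over its probe sets). Ret (-0.36 ± 0.25), Wnt9b (-0.15 ± 0.21), Cdh1 (-0.81 ± 0.26) and Gata3 (0.07 ± 0.36) were not called. Markers of the ureteric mesenchyme were above in 4 of 6 cases, with Tbx18 at 3.32 ± 0.22, Tshz3 at 3.10 ± 0.20 and Sfrp2 at 5.43 ± 0.23. Acta2 lay at 5.35 ± 0.23 (-1.90 without probe sets that may cross-hybridise, -0.33 averaged over its probe sets). Myh11 (-0.01 ± 0.19) and Tagln (-0.42 ± 0.27) were not called. Those of neural crest derivatives were above in 2 of 5, with Dbh at 2.44 ± 0.23 (-0.012 without probe sets that may cross-hybridise). Sox10 (-0.22 ± 0.20), Th (-0.53 ± 0.21) and Tubb3 (-3.93 ± 0.29) were not called. The part of these cell types in the forkhead signals was not tested.

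Foxd1 had 1 probe set, 1418876_at, with signals of 28357, 31760 and 25999 in replicates 1, 2 and 3. All 3 pools lay far above the background level of their arrays, and replicate 3 was the lowest. Its mean signal was 28706 ± 2896 (SD, n = 3), a distance of 7.45 ± 0.22 log2 units from background (SE; 175-fold higher; limma adjusted p = 1.67e-05). Across the alternatives in the closing section, this call did not change.

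Foxd2, a relative of Foxd1 expressed in several embryonic mesenchymes, gave opposite answers on its 2 probe sets. Probe set 1442315_at read 1498, 1584 and 2220, which was 3.41 ± 0.23 log2 units above background (SE, n = 3; limma adjusted p = 9.06e-05). Probe set 1450289_at read 21.9, 18.4 and 7.4, which was below the level on every array (-3.51 ± 0.41). In the annotation the dim probe set was the one that rested on a RefSeq mRNA, and the bright one rested on another record. Between the 3 pools, replicate 3 had the highest reading on the bright probe set and the lowest on the dim one. The positions of the probes in the transcript were not analysed here, so the call of Foxd2 rests on 1 of its 2 probe sets. With the mean over its probe sets it was not called (0.16 log2 units, adjusted p = 0.483).

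Foxc1 was above background on both of its probe sets. Probe set 1419486_at read 3702, 3632 and 3271 (4.43 ± 0.23 log2 units above background, SE, n = 3; limma adjusted p = 3.58e-05). Probe set 1419485_at, which the annotation ties to the same source sequence, read 1645, 1451 and 1595 (3.25 ± 0.23; adjusted p = 0.000107). As deposited, the highest array was 1.13 times the lowest on each of them; with arrays centred on the median of all probe sets, it was 1.48 and 1.35 times.

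Foxc2, the close relative of Foxc1 and a factor also known from podocytes and lymphatic vessels, had 1 probe set. It read 4727, 3618 and 4398 in replicates 1, 2 and 3, and the mean of 4248 ± 570 (SD, n = 3) lay 4.69 ± 0.25 log2 units above background (SE; limma adjusted p = 4.22e-05). Foxc2 was lowest in replicate 2. Among markers of podocytes, in which Foxc2 is also made, Podxl lay at 1.86 ± 0.21. Synpo lay at 2.12 ± 0.20 (0.52 averaged over its probe sets, limma adjusted p = 0.0973). The slit diaphragm gene Nphs1 (-1.68 ± 0.27) and Ptpro (-0.59 ± 0.30) were not above background. The part of podocytes in the Foxc2 signal was not tested. In such bulk samples, fewer cells of a type and less RNA per cell cannot be told apart.

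Foxf1 was close to the limit of detection, and its probe sets differed. Probe set 1434939_at read 314, 326 and 386, about 1 log2 unit above background (1.06 ± 0.22, SE, n = 3; limma adjusted p = 0.00694). Probe set 1423013_at read 7.6, 9.7 and 48.4 and was below the level on every array. The call of Foxf1 was lost with the level at the 99th percentile of the receptor genes (0.59; adjusted p = 0.0805 in the probe set fit and 0.0551 in the gene fit). With the mean over its probe sets it lay below background (-0.97).

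Foxf2, the paralogue of Foxf1, was not above background on either of its 2 probe sets. Probe set 1418220_at read 68.3, 35.6 and 114.5 (-1.33 ± 0.41 log2 units, SE, n = 3), and probe set 1447562_at read 17, 9.1 and 3.2 (-4.37 ± 0.54). Foxl1, whose protein marks signalling fibroblasts under the gut epithelium, read 9.3, 15.2 and 75.7 on its 1 probe set (-2.89 ± 0.59). Replicate 3 stood highest for Foxl1, for Foxf2 1418220_at and for Foxf1 1423013_at, all below background, where signals have no firm order. Foxs1 read 40.3, 21.2 and 39.4 on its 1 probe set (-2.34 ± 0.33). A probe set that is not above background gives no more than a limit, since a probe set can fail.

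Hedgehog signalling turns on Foxf1, Foxf2 and Foxl1 in gut and lung mesenchyme. Of 11 measured hedgehog genes (with Bmp4, a known target of the Foxf factors) 8 were above background, against 57.2% of all genes. Among them were the receptor Ptch1 at 7.29 ± 0.20 log2 units (SE, n = 3), the signal transducer Smo at 6.10 ± 0.23, the antagonist Hhip at 1.87 ± 0.21 and the transcription factor Gli1 at 2.17 ± 0.21. The 3 that did not pass the test were the ligands Shh (-1.12 ± 0.23), Ihh (-0.06 ± 0.20) and Dhh (-0.99 ± 0.19). Averaged over its probe sets, Hhip was below the level (-0.18). Foxs1 is known from pericytes, the cells that wrap small vessels. Of 7 pericyte markers, all 7 were above background, with Pdgfrb at 5.97 ± 0.22, Cspg4 at 4.10 ± 0.20, Abcc9 at 3.36 ± 0.28 and Rgs5 at 2.91 ± 0.27 (-0.64 averaged over its probe sets).

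Foxf1, Foxc2, Foxl1, Foxf2 and Foxc1 lie in 2 clusters of forkhead genes. On chromosome 8, Foxf1, Foxc2 and Foxl1 lie in that order, with Mthfsd between Foxf1 and Foxc2 and the long noncoding RNA gene Fendrr beside Foxf1. On chromosome 13, Foxq1, Foxf2 and Foxc1 lie in that order, followed by Gmds, a gene of GDP-fucose synthesis. In each cluster the Foxc gene was well above background while another forkhead gene of the cluster was not. Next to Foxc2 (4.69 ± 0.24 log2 units in the gene fit, SE, n = 3), Foxl1 lay at -2.89 ± 0.55. Foxf1 lay at 1.06 ± 0.20 and Fendrr at -2.70 ± 0.54. In the cluster of Foxc1 (4.43 ± 0.21), Foxf2, with 2 annotated genes between it and Foxc1, lay at -1.33 ± 0.38, and Foxq1 at -1.29 ± 0.57. Of the nearest measured neighbours outside the forkhead family, Mthfsd (1.57 ± 0.31; limma adjusted p = 0.00259), Gmds (4.09 ± 0.21; limma adjusted p = 4.89e-06) and Fbxo31, beyond Foxl1 (2.43 ± 0.21), were above background. Fendrr, 1700018A04Rik next to Foxf2 (-0.88 ± 0.25), 1700018B08Rik beyond Foxl1 (-1.28 ± 0.25), Irf8 beyond Fendrr (-0.13 ± 0.22) and Mylk4 beyond Gmds (-2.56 ± 0.37) were not.

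**Figure D2:**
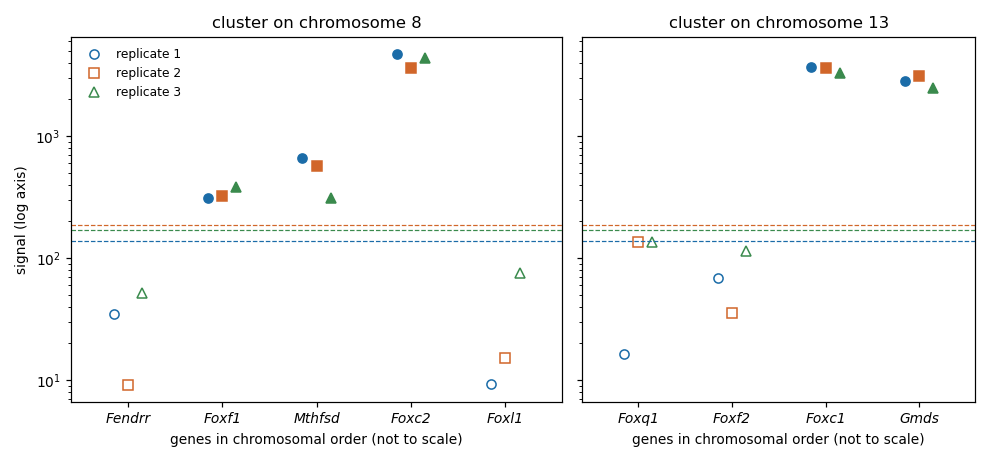
Signal on a logarithmic axis for the genes of the chromosome 8 and chromosome 13 forkhead clusters in chromosomal order, with 1 point per array and dashed lines at the background level of each array. Filled points mark genes above background: Foxc2 and Foxc1 read between 3271 and 4727, and Foxl1 and Foxf2 read at most 114.5.

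Foxp2 was above background on 4 of its 6 probe sets. The brightest, 1438232_at, read 8413, 10819 and 9261 (distance from background 5.85 ± 0.20 log2 units, SE, n = 3; limma adjusted p = 1.7e-05; 57.7-fold). Probe set 1440108_at read 3600, 4687 and 3831 (4.62 ± 0.21). Probe set 1438231_at, which has the same source sequence as the brightest, read 1362, 2092 and 2623 (3.58 ± 0.24). Probe set 1458191_at read 312, 404 and 490 (1.27 ± 0.22; limma adjusted p = 0.00335). As deposited, replicate 1 had the lowest signal on all 4. Measured from the background level of each array, replicate 3 was the lowest on 1438232_at and 1440108_at. By that measure replicate 1 was the lowest on 1438231_at and replicate 2 on 1458191_at. The other 2 were not above background: 1422014_at read 35.1, 167.9 and 182.8 (-0.68 ± 0.47), and 1441365_at read 62.1, 69.2 and 26.9 (-1.75 ± 0.36). Averaged over its 6 probe sets, Foxp2 was still called (2.36, limma adjusted p = 6.61e-05).

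Foxp1 was above background on 3 of its 8 probe sets. The annotation ties these 3 to 1 source sequence, and another 3 to a second sequence on which none was above background. On the first sequence, 1435221_at read 1508, 1520 and 1736 (3.27 ± 0.22 log2 units, SE, n = 3; limma adjusted p = 8.32e-05), 1435222_at read 511, 760 and 954 (2.13 ± 0.23) and 1455242_at read 538, 412 and 426 (1.48 ± 0.26). On the second, 1421142_s_at read 101.8, 181.3 and 227.9, at the background level (-0.02 ± 0.26), 1421140_a_at read 87.3, 92.7 and 134.6 (-0.67 ± 0.24) and 1421141_a_at read 30.5, 42.2 and 47.5 (-2.05 ± 0.21). The suffix of 1421142_s_at marks probes that may bind more than 1 transcript. The other 2, each on a sequence of its own, lay at -1.10 ± 0.29 (1438802_at) and -2.86 ± 0.76 (1443258_at). With the mean over its 8 probe sets Foxp1 was not called (0.23 log2 units, adjusted p = 0.321).

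Foxp proteins repress transcription with corepressors of the CtBP and NuRD type. All 7 of these that were listed were above background, with the CtBP proteins Ctbp1 at 7.58 ± 0.20 and Ctbp2 at 3.54 ± 0.22 log2 units (SE, n = 3) and the NuRD subunits Gatad2a at 4.42 ± 0.21 and Gatad2b at 2.76 ± 0.20. Gatad2b was not called with the mean over probe sets (0.22, limma adjusted p = 0.340). Of 13 measured genes tied to Foxd1 and the stroma, 12 were above background, with Meis1 at 6.82 ± 0.20, Meis2 at 7.58 ± 0.19, Tcf21 at 4.29 ± 0.26 and Rarb at 5.20 ± 0.22, and Rara not above it (-0.45 ± 0.22). The control elements of Meis1 drive the reporter by which the cells were sorted. Meis1, Meis2, Tcf21 and Rarb were also among the stromal markers, so the lists overlap and are not separate results. Of 8 measured genes studied with Foxc1 and Foxc2, 3 were above: Eya1 at 3.45 ± 0.27, Gdnf, the ligand for ureteric branching, at 7.35 ± 0.19, and Notch1 at 4.81 ± 0.21. The share of all genes above background, for these lists too, was 57.2%. Eya1 lay at -0.30 with the mean over probe sets. Tbx1 (-2.12 ± 0.62) and the Notch ligand Dll4 (-0.17 ± 0.21) were not above background.

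Probe sets of 1 gene thus often differed, and this was common on the array. Of the 6 members with more than 1 probe set, 4 had probe sets on both sides of the call (Foxd2, Foxf1, Foxp1 and Foxp2), against 49.8% of all 9010 genes with more than 1 probe set. Of the 8 pairs of member probe sets with a shared source sequence, 8 had the same call, against 75% of 5219 such pairs on the array. Of 38 pairs with different source sequences 13 had the same call, against 57.7% of 20112. Pairs within a gene are not independent, and 6 of the 8 shared pairs are of Foxp1. Most of the 38 other pairs are of Foxp1 and Foxp2. Probe sets without a source sequence in the annotation were left out of the pairs. Of the 5 member probe sets that rested on a RefSeq mRNA, 1 (that of Foxc2) was above background, compared with 12 of the other 21, while on the whole array the shares were 48.4% and 47.9%. The control probe sets for Gapdh read 5.00 to 5.39 log2 units higher at the 3' end than at the 5' end and those for Actb 3.04 to 3.40. The part of this 3' bias in the split probe sets was not tested.

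The 3 pools were compared for the 13 probe sets above background. As deposited, replicate 1 had the lowest signal on 8 of the 13, replicate 2 on 3 and replicate 3 on 2, whereas among all probe sets above background the lowest signal fell in replicate 1 in 34.2%, in replicate 2 in 31.5% and in replicate 3 in 34.3%. The 8 belong to Foxd2, Foxf1, Foxp1 and Foxp2 only, and probe sets of 1 gene are not independent. When arrays were centred on the median of all probe sets, replicate 3 became the lowest on 7 of the 13. It was also the lowest on 70.6% of all probe sets above background. With arrays centred on the median of the probe sets above background, replicate 1 was the lowest on 8 of the 13. In that scaling it was the lowest on 42.3% of all probe sets above background. The order of the pools thus depends on the scaling. With arrays centred on all probe sets, the SD between arrays ranged from 0.07 to 0.38 log2 units for the 13. Its median was 0.25, against 0.27 for all probe sets above background. As deposited these medians were 0.1991 and 0.1788. With arrays centred on the probe sets above background they were 0.1826 and 0.1795. Which median was larger thus depended on the scaling. Which probe set differed most between pools also depended on the scaling. With arrays centred on the median of the probe sets above background, a scaling chosen after seeing the data, the highest array was 2.01 times the lowest on Foxp2 1438231_at and 1.94 times on Foxp1 1435222_at. As deposited these gaps were 1.93 and 1.87 times, and with arrays centred on all probe sets they were 1.47 and 1.43 times. In that last scaling the widest gap was on Foxp1 1455242_at, with 1.65 times, which was 1.25 times when centred on the probe sets above background and 1.30 times as deposited. Each pool is 1 sample, so these differences have no test.

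**Figure D3:**
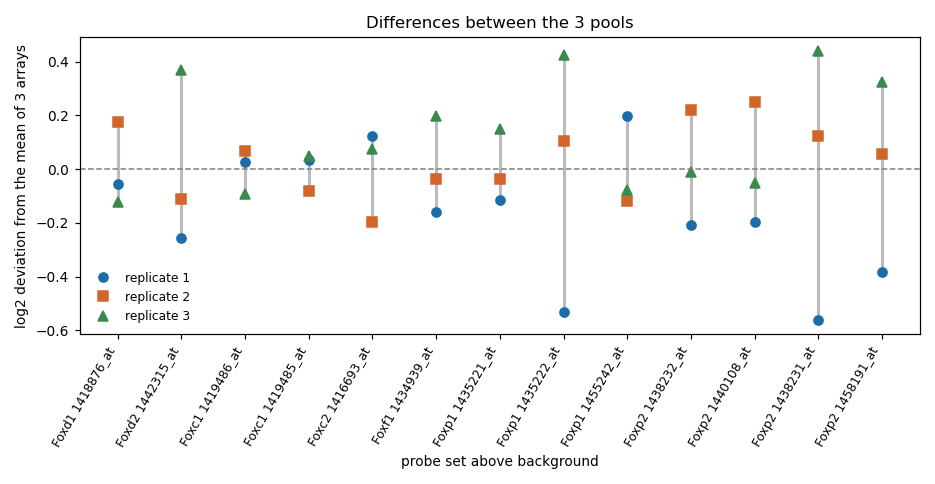
Log2 deviation of the single arrays from their mean for the 13 forkhead probe sets above background, with arrays centred on the median of the probe sets above background. Grey lines join the lowest and highest array; in this scaling the widest gap was on Foxp2 1438231_at, with replicate 1 lowest, whereas with arrays centred on all probe sets it was on Foxp1 1455242_at.

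Across the whole family, 37 of 44 listed forkhead genes were measured and 19 were above background (51.4%, against 57.2% of all genes). Of the 27 measured forkhead genes outside the 10 members 12 were above. They were Foxj2 and Foxj3 (5.36 ± 0.21 and 7.31 ± 0.20 log2 units, SE, n = 3), Foxk1 and Foxk2 (5.82 ± 0.19 and 5.44 ± 0.24), Foxn2 and Foxn3 (5.88 ± 0.20 and 6.27 ± 0.20), the growth factor regulated Foxo1, Foxo3 and Foxo4 (3.80 ± 0.23, 5.87 ± 0.21 and 2.68 ± 0.27), the cell cycle factor Foxm1 (2.58 ± 0.24), Foxl2 (1.53 ± 0.23) and Foxp4 (1.06 ± 0.23). Foxp4 lost its call without replicate 3 (0.85, limma adjusted p = 0.0614) and in 3 other alternatives, and with the mean over probe sets Foxl2 lay below background (-0.66) while Foxm1 (0.79) and Foxo4 (0.70) were not called. Within the subfamilies of the members, Foxd3 and Foxd4, each on 1 probe set, were not above background (-1.78 ± 0.24 and -1.98 ± 0.21), nor was Foxp3, the factor of regulatory T cells (-1.76 ± 0.26). None of the 3 Foxa genes, which are made in endoderm and its derivatives, was above background; they ranged from -3.35 to -0.86.

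**Figure D4:**
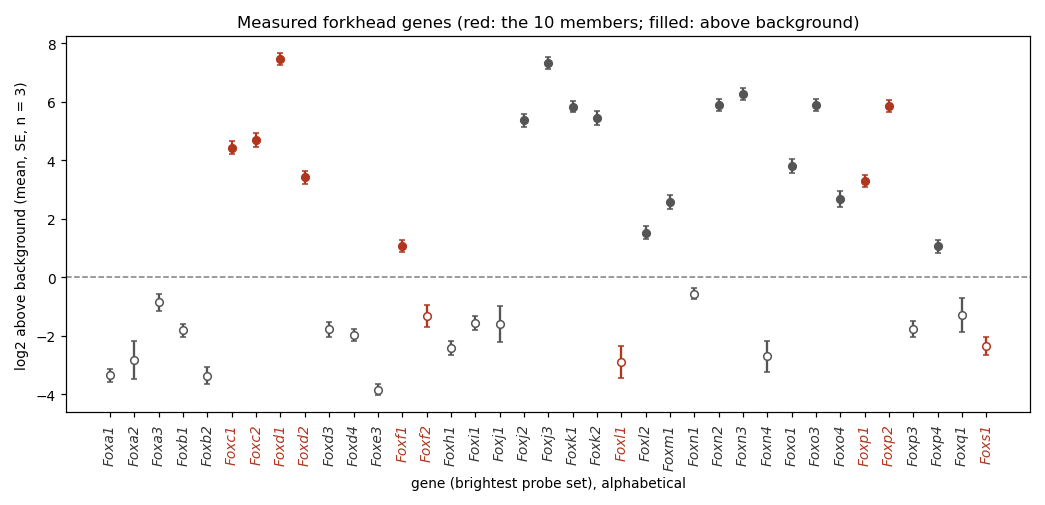
Distance from background in log2 units for the 37 measured forkhead genes, each at its brightest probe set, with the mean and the moderated SE of 3 arrays. Red marks the 10 members and filled points the 19 genes above background; Foxd1 lay at 7.45, and Foxd3 and Foxd4 lay below the dashed line at -1.78 and -1.98.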

How the data were processed

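The authors deposited 1-colour array intensity, linear, with 1 value for a probe set on an array. They used GCOS, per the submitters' processing notes. All 3 arrays had a 2% trimmed mean of 1500.01, so the deposited values had been scaled. From these, log2 was taken without a pseudocount and 64 control probe sets were left out. Symbols came from the platform annotation through Entrez IDs and a RefSeq table of GRCm38.p6, which 34741 of 34945 single-symbol probe sets matched.

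Log2 signal minus the background level was fitted with limma 3.58.1 in R 4.3.3 (intercept, eBayes, tested above 0), and p-values were adjusted by Benjamini-Hochberg over 45037 probe sets or, at the brightest probe set, 18193 genes. SEs are moderated and carry the spread of the background levels. In simulated data for the probe set fit, 96% of probe sets 1 log2 unit above background were called, and 66% of those 0.5 units above. The simulated probe sets had the spreads of probe sets called in these data, so the rates may be too high for those with a wider spread. The number of arrays limits the precision. Separate litters are not stated for the pools, so p-values reflect only the spread of these 3 samples, part of which may be technical.

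Members and lists were chosen with earlier results of these data known. Most named genes were drawn from a set of the members, other forkhead genes above background, genes beside the 2 clusters and the first of each list above and not above background (at most 4 and 2). Not every gene of this set is named. Cdh1, Dhh, Foxa1, Foxa3, Foxd3, Foxd4, Foxp3, Foxq1, Gata3 and Tubb3 were named after their values were seen. Protein sequences were not used here, so a planned comparison of forkhead domains was left out.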

Additional observations from a re-analysis of the deposited data

How the results depend on the processing

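There were up to 14 alternatives for each probe set and up to 15 for each gene, fewer where a filter removed it: other percentiles, a common level, levels from other genes, quantile normalization, a pseudocount of 16, filters, a rule on every array, and leaving out each replicate. The number of member probe sets above background was 13 in all but 1 of them and that of member genes 7 in all but 2. At the 99th percentile Foxf1 lost its call (0.59 log2 units), leaving 12 probe sets and 6 genes. In that setting 37% of all probe sets and 52.9% of all genes were called. With the mean over probe sets, 4 member genes were called (Foxd1, Foxc1, Foxc2 and Foxp2), against 50.3% of all genes. Foxd2 lay at 0.16, Foxp1 at 0.23 and Foxf1 was reversed at -0.97. This setting weights probe sets not above background as much as the brightest. It also takes the background level from receptor genes averaged in the same way, here and wherever averaged values are given. Foxd1, with 1 probe set, lay at 7.66 in this setting and at 7.45 in the main fit. The distance of Foxp1 1421142_s_at, which was not called in any alternative, turned positive at the 90th percentile (0.33), over every receptor probe set (0.065), with 2 receptor pseudogenes added after seeing the data (0.0010) and without replicate 1 (0.19; -0.24 without replicate 3).

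Outside the members, alternatives were run for 77 genes, from which most of the named ones were drawn. Of their 1146 values, 1110 kept their direction and call. The mean over probe sets reversed Foxl2 (-0.66), Foxp4 (-0.26), Hhip (-0.18), Eya1 (-0.30), Cdh5 (-0.048), Rgs5 (-0.64), Calb1 (-1.44), Acta2 (-0.33) and Stmn2 (-0.12). Ihh has 1 probe set and turned positive in that setting (0.15), in which the background level is also recomputed. Leaving out probe sets that may cross-hybridise reversed Acta2 (-1.90) and Dbh (-0.012). Genes that were not called in any alternative turned positive at the 90th percentile (Ihh 0.29, Dll4 0.18, Irf8 0.23, Wnt9b 0.21, Myh11 0.35 and Sox10 0.13), over every receptor probe set (Ihh 0.024, Myh11 0.076), with the receptor pseudogenes (Myh11 0.012), without replicate 1 (Ihh 0.044; -0.18 without replicate 2) and without replicate 2 (Irf8 0.050, Myh11 0.073; without replicate 3 they lay at -0.29 and -0.052). The causes were not tested. No paired analysis was possible because the series has 1 group. Signals below background have no firm order, which limits Foxf2, Foxl1, Foxs1 and the dim probe sets of the other genes.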
